A study of Drosophila melanogaster with 4 samples.

Results

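The wing imaginal disc is a folded sheet of larval epithelium from which the wing and part of the thorax of the adult develop. In this fly study 53 of the 13990 genes in the deposited table were high in the library that carries a construct against taiman (tai), and low or ordinary in the other 3 libraries. Each genotype drives GFP with the en driver, and en (engrailed) is expressed in the posterior compartment, so every pool mixes posterior cells, where the driver is active, with anterior cells, where it is not. The 4 genotypes are enGFP+Yki+Tai-IR, enGFP+Yki+Tai, enGFP+Yki and enGFP, written here as Yki+Tai-IR, Yki+Tai, Yki and GFP. Yki is the growth-promoting coactivator Yorkie, Tai is the coactivator Taiman, and Tai-IR is an inverted-repeat construct against tai. Larvae were wandering third-instar animals raised at 25 °C and sorted for GFP, and 80 to 100 discs of each genotype were pooled into 1 library. The transgene insertions, the sex of the larvae and their age within the wandering stage are not known here, and the protocol states the number of discs for en>GFP and en>GFP,Tai, which are not names of all 4 libraries.

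The members were picked from these same values. A gene belongs to the group when its log2(FPKM + 1) in Yki+Tai-IR exceeds that in each of the other 3 libraries by 1 or more, which is 2-fold on the FPKM + 1 scale. FPKM are fragments scaled to transcript length and library size. Yki minus GFP must also be under 0.5, and the mean over the 4 libraries must be 1 FPKM or more. Genes whose names start with Cpr, Twdl, Osi, Hsp, Gst, sno, snRNA, mir or tRNA were left out, which leaves 7747 genes that could pass. The differences below are therefore descriptions of the choice, and with 1 library per genotype none has a replicate check or a p-value. In whole discs, more cells of a type and more RNA per cell cannot be told apart.

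Taiman is a coactivator of the p160 family that binds the ecdysone receptor and helps it turn on genes in response to the steroid hormone ecdysone. The receptor also holds some genes down when hormone or coactivator is lacking. Yorkie is the coactivator restrained by the Hippo kinase pathway, and it works with the DNA-binding protein Scalloped to promote growth and survival of disc cells. Ecdysone pulses also time the later life of the disc, including cuticle secretion, pigmentation and differentiation of bristles and their neurons, which usually lie ahead of the stage sampled here.

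Whole-disc transcript of tai was 22.9 FPKM in Yki+Tai-IR, against 1260.3 in Yki+Tai, 25.0 in Yki and 27.1 in GFP. Relative to Yki, the Yki+Tai-IR value was 0.916-fold, with an interval of 0.856 to 0.980. Transcript of yki stood at 2563.1 FPKM in Yki+Tai-IR, 4535.2 in Yki+Tai, 5034.1 in Yki and 71.5 in GFP. The library that defines the group thus had less yki transcript than Yki, at a ratio of 0.509 (0.502 to 0.516), and a tai level slightly under it. Anterior cells, where en does not drive the constructs, contribute to both levels. Anterior ci was at 103 FPKM in Yki+Tai-IR, 29.8 in Yki+Tai, 81.3 in Yki and 128 in GFP, and posterior en at 23.9 FPKM in Yki+Tai-IR, 63.2 in Yki+Tai, 32.6 in Yki and 43.2 in GFP. The part that the unequal yki signal and compartment genes have in the results below was not tested. Intervals on ratios are exact Clopper-Pearson intervals at 95% on fragment numbers estimated from the FPKM, and they cover counting error only. Estimated depths were 8.325 M fragments in Yki+Tai-IR, 12.52 M in Yki+Tai, 9.593 M in Yki and 8.063 M in GFP. A level that rests on 3 fragments of a 2 kb transcript was 0.202 FPKM in Yki+Tai-IR, 0.134 in Yki+Tai, 0.175 in Yki and 0.208 in GFP.

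Being high in Yki+Tai-IR over all others was uncommon among the 7747 genes. Of them 74 genes, or 0.955%, were higher there by 1 or more than in each other library, against 113 genes, or 1.46%, with Yki+Tai as the highest library, 3 genes, or 0.0387%, with Yki and 28 genes, or 0.361%, with GFP. The limit on Yki minus GFP removed 21 of the 74 and leaves the 53 members. In pairs, 4.29% of the genes were higher by 1 or more in Yki+Tai-IR than in Yki+Tai, 3.01% than in Yki and 3.05% than in GFP. All 53 members are past that limit in each pair because the rule demands it. Genes lower by 1 or more in Yki+Tai-IR made up 3.55% against Yki+Tai, 0.916% against Yki and 1.55% against GFP.

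**Figure D1:**
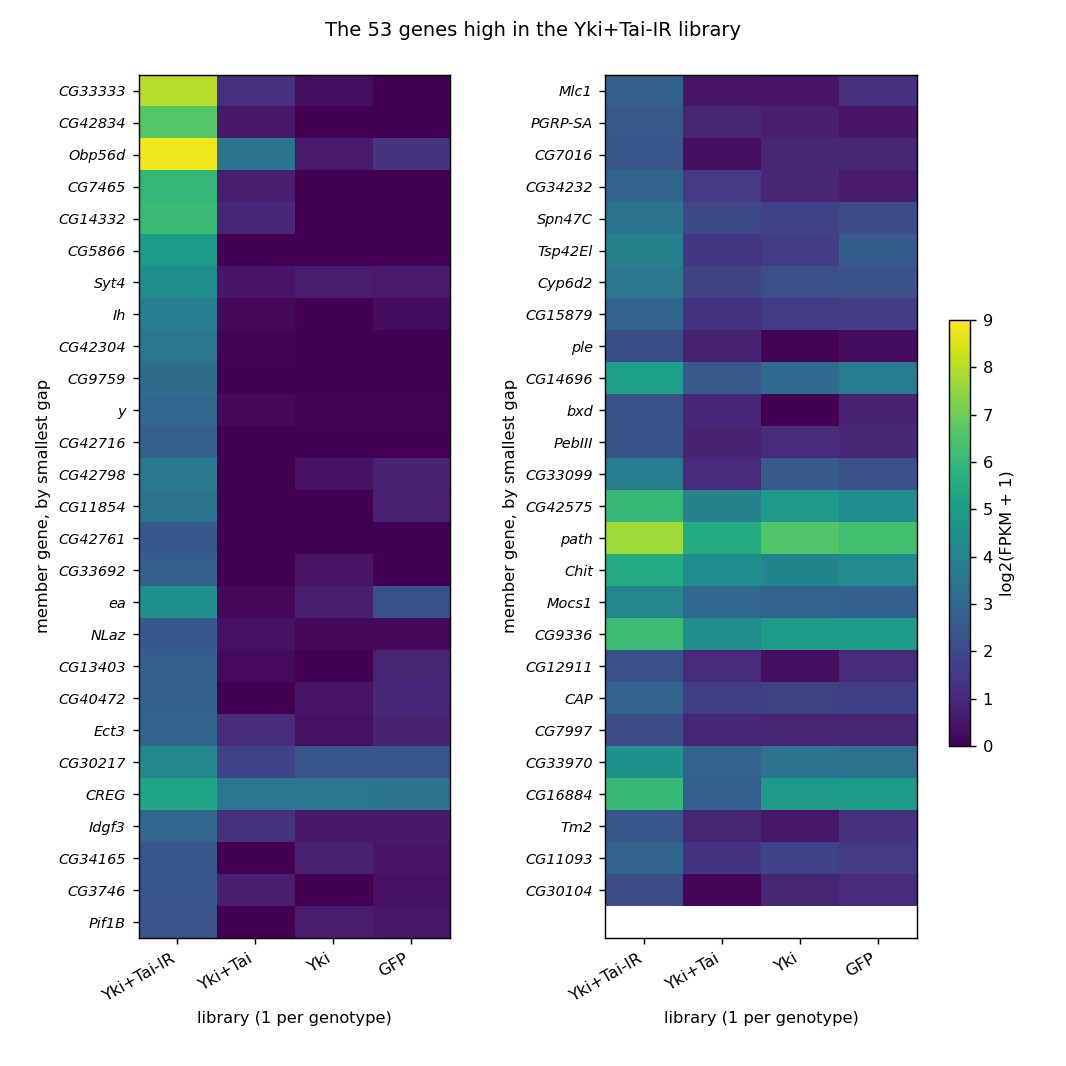
Colour gives log2(FPKM + 1) for each of the 53 members (rows, in order of the smallest gap between Yki+Tai-IR and any other library) in the Yki+Tai-IR, Yki+Tai, Yki and GFP libraries (columns, 1 library each). The upper rows of the left panel are nearly dark outside Yki+Tai-IR, whereas lower rows of the right panel, such as path and CG9336, are lit in every library and only brighter in Yki+Tai-IR.

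The members fall into genes that were almost silent elsewhere and genes that every library expressed. In Yki+Tai-IR their levels ran from 3.26 to 443 FPKM with a median of 8.11. Medians in the other libraries were 0.977 FPKM in Yki+Tai, 0.610 in Yki and 0.915 in GFP. Of the 53 genes, 21 were under 1 FPKM in each of Yki+Tai, Yki and GFP, a state found in 0.323% of all genes that could pass, and 17 were at 1 FPKM or more in all of them. A further 15 lay between, above 1 FPKM in some but not all of the other libraries. At least 1 of the other 3 libraries was listed at 0 for 18 members, against 1.06% of all genes that could pass, and all 3 were at 0 for CG5866, CG9759, CG42716 and CG42761. These shares follow in part from the rule. The smallest gap between Yki+Tai-IR and another library had a median of 1.59 on the log2(FPKM + 1) scale, was 2 or more for 18 members and 5 or more for 5 of them.

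Estimated fragments in Yki+Tai-IR had a median of 111 over the 52 members with an annotated transcript, with a range of 5 to 4469, and were under 50 for 17. For 34 members a ratio to each other library could be formed. The choice by 2-fold differences fixes that these ratios are high, so their intervals show only the counting error. The members with the fewest fragments were CG42716, a 325-nt transcript with about 5 fragments, CG40472 with about 12, CG34165 and CG3746 with about 14 each, PebIII with about 17 and CG13403 with about 19.

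Yki+Tai and Yki differed in no common direction among the members. Against Yki, 3 members were higher by 1 or more in Yki+Tai and 3 lower, where 3.11% and 2.09% of all genes were. Of the 53, 23 lay above 0 and 25 below in that difference, with a median of 0. The 3 higher were Obp56d, CG14332 and bxd, by 2.82 for Obp56d, 1.05 for CG14332 and 1.01 for bxd on the log2(FPKM + 1) scale. The 3 lower were CG16884, CG33099 and path. The lowest of the other 3 libraries was Yki+Tai for 29 members, Yki for 17 and GFP for 7, and the one closest to Yki+Tai-IR was Yki+Tai for 22, Yki for 13 and GFP for 18. Ties were counted for the first library in the order Yki+Tai, Yki, GFP. The 4 members at 0 in all 3 thus count as Yki+Tai both times, and other ties at 0 also raise the earlier libraries.

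The largest gaps belonged to a run of neighbouring genes on chromosome arm 3R. It holds 6 members within 28.9 kb, between positions 17393272 and 17422202 of the dm6 assembly: CREG, CG42798, CG5866, CG33333, CG42834 and CG14332. Of these, 4 rank among the 6 members with the largest gaps. All but CREG are named only by CG numbers in the annotation, which calls them protein-coding, and their transcripts are short, from 513 to 710 nt.

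CG33333 (FBgn0053333, 3R, 17417467 to 17418042, a single-exon gene) stood at 258 FPKM in Yki+Tai-IR, against 1.32 in Yki+Tai, 0.287 in Yki and 0 in GFP. That is about 783 fragments in Yki+Tai-IR, 6 in Yki+Tai, 1 in Yki and 0 in GFP, and the ratio of Yki+Tai-IR to Yki+Tai was 196 (89.7 to 536). Only the Yki+Tai-IR library had more than a trace of this transcript. An annotated antisense RNA overlaps CG33333, and the TruSeq version 2 kit does not mark strand, so reads of the pair cannot be told apart. CG42834 (FBgn0262023, 3R, 17418759 to 17419294) lies next to it. Its level was 97.1 FPKM in Yki+Tai-IR and 0.512 in Yki+Tai, and it was listed at 0 in Yki and GFP.

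The flanking genes CG14332 (FBgn0038509, 3R, 17421690 to 17422202, minus strand) and CG5866 (FBgn0038508, 3R, 17415739 to 17416505) followed the same pattern. CG14332 reached 69.5 FPKM in Yki+Tai-IR, against 1.06 in Yki+Tai and 0 in Yki and GFP. CG5866 reached 28.7 FPKM, about 119 fragments, in Yki+Tai-IR and was listed at 0 in the other 3 libraries. For these 4 genes Yki+Tai-IR stood apart, and the largest trace outside it was in Yki+Tai for CG33333, CG42834 and CG14332. CG42798 (FBgn0261932, 3R, 17406678 to 17407534) was at 11.3 FPKM in Yki+Tai-IR, 0 in Yki+Tai, 0.364 in Yki and 0.862 in GFP, on about 28 fragments in Yki+Tai-IR.

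Low genes between the members were mostly highest in Yki+Tai-IR as well. The table holds 17 genes in this stretch, of which 5 were listed at 0 in all libraries. Of the 12 others, 6 are members, which the rule makes highest in Yki+Tai-IR. Of the 6 that are not, 5 were highest there and 4 had a value above 0 there only. Over the table, 24.1% of the non-members with any value above 0 were highest in Yki+Tai-IR, and 7.26% of such genes with a mean under 1 FPKM were above 0 there only. CG42835, between CG42834 and CG14332, was at 2.09 FPKM in Yki+Tai-IR, CG42823 at 1.17, CG42824 at 0.409 and CG17283 at 0.173, each listed at 0 elsewhere. Their means are under 1 FPKM, so the rule could not take them. Such values rest on few fragments. CG42716, a 325-nt member at 5.66 FPKM in Yki+Tai-IR, had only about 5. CG17283 is under the 0.202 FPKM that 3 fragments of a 2 kb transcript give in that library. CG42822 was at 2.07 FPKM in Yki+Tai-IR and 0.688 in Yki+Tai.

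The pattern did not extend to the broadly expressed genes at the left end of the stretch. Sur-8, which lies inside it and encodes a leucine-rich repeat scaffold of Ras signalling, was at 28.3 FPKM in Yki+Tai-IR, 29.9 in Yki+Tai, 34.5 in Yki and 25.2 in GFP. Just outside, sds22, a regulatory subunit of protein phosphatase 1, was at 96.3 FPKM in Yki+Tai-IR, 77.7 in Yki+Tai, 96.9 in Yki and 84.8 in GFP. On the right, cysu was lower, at 7.52 FPKM in Yki+Tai-IR, 13.1 in Yki+Tai, 14.6 in Yki and 11.2 in GFP. CREG (FBgn0025456, 3R, 17393272 to 17394640), a secreted and lysosomal glycoprotein in mammals, was of another kind, since every library expressed it. It was at 37.7 FPKM in Yki+Tai-IR, against 10.7 in Yki+Tai, 10.7 in Yki and 10.1 in GFP. The ratio to Yki was 3.5 (2.68 to 4.62) and the 3 other libraries lay close together.

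Another run lay on chromosome arm 2R. Its members are CG3746 (FBgn0034755, 22648995 to 22649750), Cyp6d2 (FBgn0034756, 22652573 to 22654530) and CG30217, within 8.14 kb and all on the minus strand. Cyp6d2, a cytochrome P450 of a family that oxidises foreign compounds, was at 10.8 FPKM in Yki+Tai-IR, against 2.68 in Yki+Tai, 3.57 in Yki and 3.67 in GFP. Its ratio to Yki was 3.04 (2.2 to 4.25). CG30217, whose span is now divided between the overlapping genes CG43325 and CG43326, was at 16.8 FPKM in Yki+Tai-IR, 2.48 in Yki+Tai, 4.13 in Yki and 4.37 in GFP. CG3746 was near the floor, at 4.06 FPKM in Yki+Tai-IR, 0.675 in Yki+Tai, 0 in Yki and 0.349 in GFP.

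The neighbours of these members were also highest in Yki+Tai-IR. From CG30195 to CG13510 (2R, 22646616 to 22661389) 9 consecutive genes of the table had their highest value there, which is how the ends of the stretch were set. Over the table, 24.1% of the non-members with any value above 0 were highest in Yki+Tai-IR. CG3875, inside the stretch, was low, at 0.815 FPKM in Yki+Tai-IR and 0.405 in Yki. The end gene CG13510 was low as well, at 0.533 FPKM in Yki+Tai-IR and 0.275 in GFP. Of the 9, 6 were past the gap of 1, and 3 of those are members. CG30196 was at 39.3 FPKM in Yki+Tai-IR, 5.84 in Yki+Tai, 8.36 in Yki and 4.74 in GFP. CG34445 was at 37.2 FPKM in Yki+Tai-IR, 5.16 in Yki+Tai, 12.5 in Yki and 7.21 in GFP, and CG34446 at 74.6 FPKM in Yki+Tai-IR, 0 in Yki+Tai, 21.7 in Yki and 0 in GFP. These 3 genes miss membership only because Yki minus GFP was 0.71, 0.72 and 4.50. CG13511 and CG42565 share the span of CG13510 and do not follow it: CG13511 was listed at 0 throughout and CG42565 was at 0.491 FPKM in Yki+Tai-IR, 0 in Yki+Tai, 0.428 in Yki and 0.507 in GFP. CG2852, a cyclophilin at the left edge, was at 1538 FPKM in Yki+Tai-IR, 1803.5 in Yki+Tai, 1479.6 in Yki and 2284.2 in GFP.

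**Figure D2:**
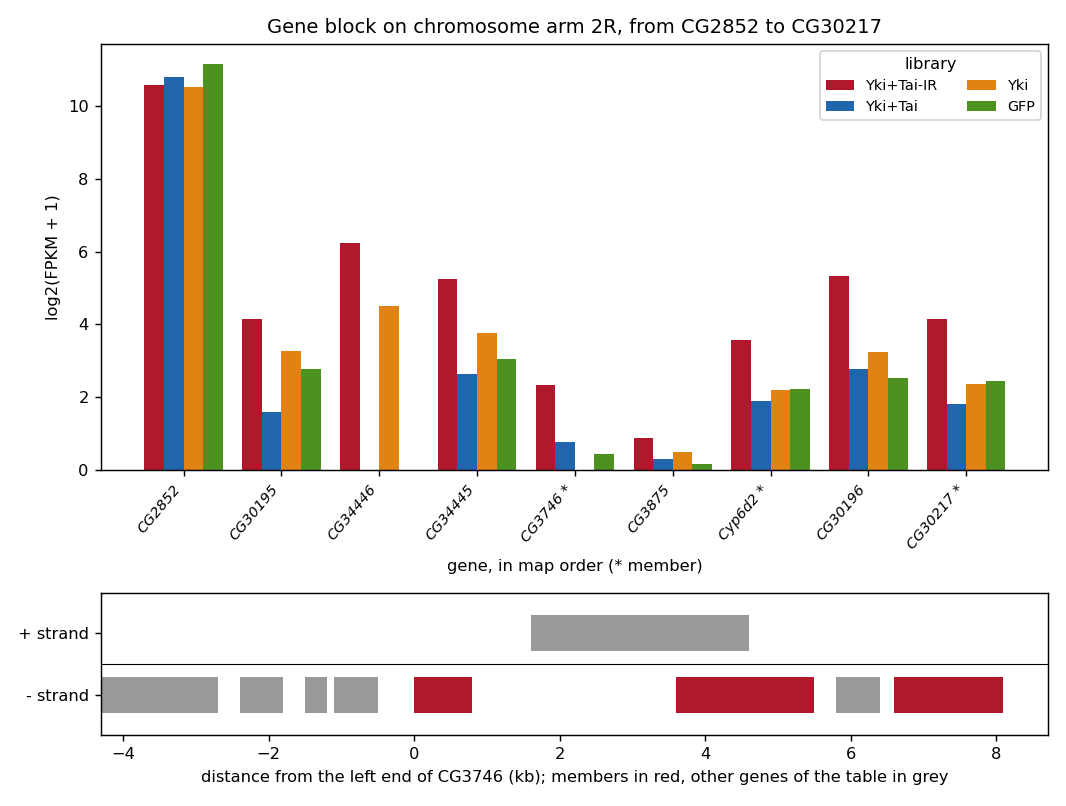
The upper panel plots log2(FPKM + 1) for the genes of the table from CG2852 to CG30217 on arm 2R, in map order, with 1 bar per library. The lower panel gives their strands and distances from the left end of CG3746 in kb. Yki+Tai-IR has the highest bar at every gene from CG30195 to CG30217, while CG2852 on the left does not.

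Other pairs of members lay within 20 kb of each other. Between CG12911 and CAP on 2R lie CR30009 and CG12910. These 4 consecutive genes were all highest in Yki+Tai-IR, which the rule demands of the members CG12911 and CAP. The 2 between were low, with CR30009 at 0.377 FPKM in Yki+Tai-IR, 0 in Yki+Tai, 0.109 in Yki and 0.130 in GFP, and CG12910 at 0.0731 FPKM in Yki+Tai-IR and 0 elsewhere. The CG12910 value is below the 0.202 FPKM that 3 fragments of a 2 kb transcript give in Yki+Tai-IR. Over the table, 25.1% of genes with a mean under 1 FPKM and any value above 0 were highest in Yki+Tai-IR. Tm2 and ea lie on 3R with the expressed genes CG6276, ear and CG6236 between them, none of which was past the limit of 1 in any pair with Yki+Tai-IR. In all, 13 members sat in 4 such groups. The matching share over all genes that could pass was not computed, so this count is a description only. Over the 52 members with a position, 19 were on 3R (36.5%, against 24.2% of all genes that could pass), 14 on 2R (26.9% against 20.4%), and 4 on X (7.69% against 17.2%). The 3R count includes the 6 neighbouring members of the 28.9 kb run, and the 2R count the 3 of the 8.14 kb run. Transcripts under 1000 nt made up 36.5% of members and 16.7% of all such genes. The median transcript was 1372 nt in the members and 1945 nt in all, and both had a median of 4 exons.

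Obp56d had the highest level of any member. It encodes a small secreted odorant-binding protein, a family that carries hydrophobic ligands in sensory organs and other tissues. It stood at 443 FPKM in Yki+Tai-IR, against 9.96 in Yki+Tai, 0.555 in Yki and 1.64 in GFP (FBgn0034470, 2R, 19702924 to 19703915). The ratio of Yki+Tai-IR to Yki+Tai was 44.5 (35 to 57.6), on about 2008 and 68 fragments. Yki+Tai, though far below, was itself 2.82 above Yki on the log2(FPKM + 1) scale.

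No other odorant-binding gene of the table passed the gap of 1. Obp56a, its neighbour in the same gene cluster, was at 83.1 FPKM in Yki+Tai-IR, 27.1 in Yki+Tai, 130 in Yki and 95 in GFP, so its highest library was Yki. The 7 other genes of the Obp56 cluster were each under 1 FPKM in every library. Among them Obp56e was at 0.699 FPKM in Yki+Tai-IR, on about 2 fragments, and at 0 elsewhere, a gap of 0.76. Among 9 odorant-binding genes that averaged at least 1 FPKM, 5 were higher by 1 or more in Yki+Tai-IR than in Yki+Tai, 3 than in Yki and 1 than in GFP. Over all genes that could pass, the shares were 4.29% against Yki+Tai, 3.01% against Yki and 3.05% against GFP. Obp99a was at 91.5 FPKM in Yki+Tai-IR, 17.6 in Yki+Tai, 23.5 in Yki and 157 in GFP.

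A further gene without a family name, CG7465 (FBgn0035551, 3L, 4480283 to 4481487), was nearly as selective. It was at 63.0 FPKM in Yki+Tai-IR, 0.696 in Yki+Tai and 0 in Yki and GFP, on about 480 fragments in Yki+Tai-IR and 8 in Yki+Tai. CG9759 reached 8.11 FPKM, about 61 fragments, in Yki+Tai-IR alone. CG11854 was at 9.14 FPKM in Yki+Tai-IR, 0 in Yki+Tai and Yki, and 0.773 in GFP. On the opposite strand CG11854 overlaps bam, a germline differentiation gene, which had another pattern at 0.936 FPKM in Yki+Tai-IR, 2.13 in Yki+Tai, 1.57 in Yki and 0 in GFP.

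**Figure D3:**
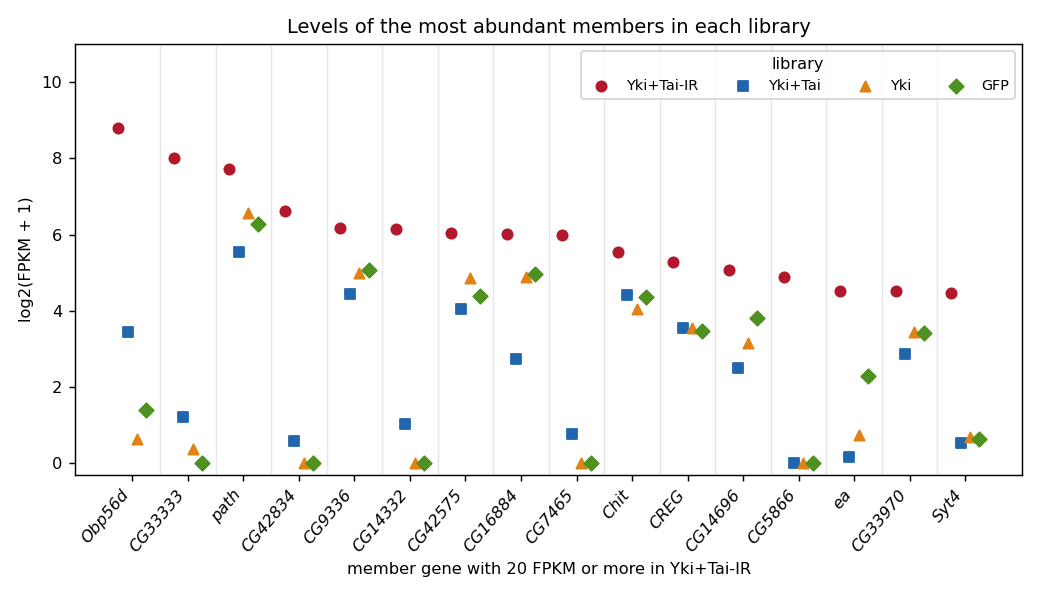
Points give log2(FPKM + 1) in the Yki+Tai-IR, Yki+Tai, Yki and GFP libraries for the 16 members with 20 FPKM or more in Yki+Tai-IR, from the highest to the lowest there. Obp56d, CG33333, CG42834, CG14332, CG7465, CG5866 and Syt4 have a wide space below the Yki+Tai-IR point, whereas path, CG9336 and Chit sit just over 1 unit above the next library.

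Syt4 and Ih are known from nerve and muscle. Syt4 (FBgn0028400, 3R, 7266065 to 7270809) encodes synaptotagmin 4, a vesicle protein that acts in signalling from muscle back to the motor nerve. It stood at 21.1 FPKM in Yki+Tai-IR, against 0.439 in Yki+Tai, 0.610 in Yki and 0.553 in GFP. The ratio to Yki was 34.7 (21.4 to 60.1), and the other 3 libraries lay close together. Ih (FBgn0263397, 2R, 14276130 to 14300095), a channel opened by hyperpolarisation, was at 13.5 FPKM in Yki+Tai-IR, 0.146 in Yki+Tai, 0 in Yki and 0.230 in GFP. Neither is a short gene, and they rest on about 509 and 653 fragments.

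The fixed list of neuronal and synaptic genes holds no member. Its 23 markers summed to 36.9 FPKM in Yki+Tai-IR, 35 in Yki+Tai, 36.8 in Yki and 41.9 in GFP. The defining neuronal gene elav was at 8.48 FPKM in Yki+Tai-IR, 5.96 in Yki+Tai, 9.86 in Yki and 9.32 in GFP. Of the 5 markers averaging 1 FPKM or more, 1 was higher by 1 or more in Yki+Tai-IR than in each other library, which was Snap25, a vesicle fusion gene, at 4.85 FPKM in Yki+Tai-IR, 1.49 in Yki+Tai, 1.42 in Yki and 0.375 in GFP, which misses the limit on Yki minus GFP. Among the other synaptotagmin genes, Syt1 stood at 0.0316 FPKM in Yki+Tai-IR, 1.35 in Yki+Tai, 0.165 in Yki and 0.261 in GFP.

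The next members are described by their known roles in pigment and cuticle. The fixed list of chitin-binding genes holds no member, and the yellow and dopamine families, which were added after values were seen, hold 1 each. The gene y (yellow), whose secreted product is needed for black melanin, was at 7.33 FPKM in Yki+Tai-IR, 0.174 in Yki+Tai, 0.0569 in Yki and 0.0676 in GFP (FBgn0004034, X, 356509 to 361245). That is about 111 fragments in Yki+Tai-IR, 4 in Yki+Tai, 1 in Yki and 1 in GFP. Tyrosine hydroxylase, encoded by ple and the first step from tyrosine to dopamine and melanin, was at 3.49 FPKM in Yki+Tai-IR, 0.862 in Yki+Tai, 0.0615 in Yki and 0.240 in GFP. For y the 3 other libraries were all near 0, and for ple Yki+Tai lay between.

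Other genes of the melanin pathway had other highest libraries. Ddc, the decarboxylase that acts after ple, was highest in Yki+Tai, at 4.53 FPKM in Yki+Tai-IR, 16.8 in Yki+Tai, 2.90 in Yki and 1.60 in GFP. Pu, which makes the cofactor for ple, was at 7.43 FPKM in Yki+Tai-IR, 1.4 in Yki+Tai, 8.89 in Yki and 4.33 in GFP. Within the yellow family of 14 genes y was the only member. The closest relative in pattern was yellow-c, just outside the threshold, at 7.11 FPKM in Yki+Tai-IR, 0.909 in Yki+Tai, 3.17 in Yki and 2.82 in GFP, a gap of 0.96.

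CG16884, now Vajk3, a cuticular protein, was at 63.7 FPKM in Yki+Tai-IR, 5.70 in Yki+Tai, 28.5 in Yki and 30.1 in GFP. CG16885 (Vajk2) had nearly the same profile, at 55.7 FPKM in Yki+Tai-IR, 5.26 in Yki+Tai, 23.9 in Yki and 31.1 in GFP, and its gap of 0.82 leaves it out. CG33970, now osy, an ABC transporter of the cuticle barrier, was at 21.8 FPKM in Yki+Tai-IR, 6.28 in Yki+Tai, 9.83 in Yki and 9.60 in GFP. In all of these Yki+Tai was the lowest library. The chitin-binding gene obst-E, not a member because Yki exceeded GFP by 1.71, was at 25.1 FPKM in Yki+Tai-IR, 1.93 in Yki+Tai, 2.80 in Yki and 0.158 in GFP.

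The imaginal disc growth factors, chitinase-like secreted proteins that lack the catalytic residue, gave 2 members. Idgf3 was at 6.87 FPKM in Yki+Tai-IR, 1.51 in Yki+Tai, 0.511 in Yki and 0.519 in GFP. Chit, now Idgf6, was at 45.8 FPKM in Yki+Tai-IR, 20.3 in Yki+Tai, 15.6 in Yki and 19.4 in GFP. Their relative Idgf1 had a gap of 1.28, at 2.33 FPKM in Yki+Tai-IR, 0.371 in Yki+Tai, 0.162 in Yki and 0.192 in GFP, but a mean below 1 FPKM. Idgf4, the most abundant of the family, was at 181 FPKM in Yki+Tai-IR, 196 in Yki+Tai, 198 in Yki and 202 in GFP. Of 4 family genes averaging 1 FPKM or more, 3 were higher by 1 or more in Yki+Tai-IR than in Yki. By the same measure 2 were higher than in Yki+Tai and 2 than in GFP. Over all genes that could pass, the shares were 3.01% against Yki, 4.29% against Yki+Tai and 3.05% against GFP.

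**Figure D4:**
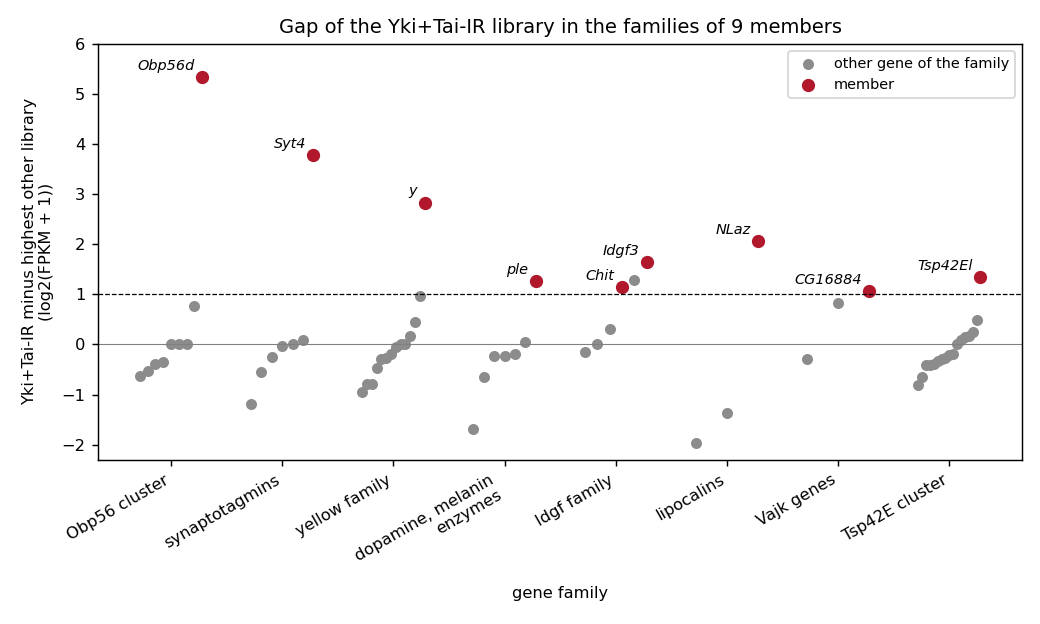
For each of 8 gene families that hold 9 members, points give the Yki+Tai-IR value minus that of the highest other library on the log2(FPKM + 1) scale. Members are red, other genes grey, and the dashed line marks the gap of 1. In most families 1 red point stands above grey points that mostly lie around or below 0. Grey points nearer the line include yellow-c at 0.96, Obp56e at 0.76 and CG16885 of the Vajk genes. The grey point above the line among the Idgf genes is Idgf1, whose mean is under 1 FPKM.

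Members of the fixed immune and protease lists were ea, Spn47C and PGRP-SA. The serine protease gene ea (easter), which activates the Toll ligand in the embryo, was at 21.8 FPKM in Yki+Tai-IR, 0.130 in Yki+Tai, 0.683 in Yki and 3.85 in GFP. Its ratio was 5.66 (4.02 to 8.16) to GFP and 31.9 (16.1 to 73.4) to Yki, so GFP held an intermediate level. PGRP-SA, a peptidoglycan sensor upstream of Toll, was at 4.68 FPKM in Yki+Tai-IR, 0.95 in Yki+Tai, 0.678 in Yki and 0.402 in GFP. The serpin gene Spn47C was at 9.87 FPKM in Yki+Tai-IR, 2.96 in Yki+Tai, 2.55 in Yki and 3.25 in GFP. In the immune list, 8 genes averaged 1 FPKM or more, of which 1 was higher and 2 lower by 1 or more in Yki+Tai-IR than in Yki+Tai, 1 and 1 than in Yki, and 2 and 1 than in GFP. Against Yki their median difference was 0.09, against 0.007 over all genes.

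The lipocalin gene NLaz, a carrier of lipids induced by stress, was at 4.61 FPKM in Yki+Tai-IR, 0.340 in Yki+Tai, 0.148 in Yki and 0.176 in GFP. The other lipocalins went the opposite way and were highest in Yki+Tai. GLaz was at 5.28 FPKM in Yki+Tai-IR, 15.2 in Yki+Tai, 8.86 in Yki and 8.37 in GFP, and Karl at 1.19 FPKM in Yki+Tai-IR, 7.55 in Yki+Tai, 2.02 in Yki and 3 in GFP. Among enzymes of the lysosome, Ect3, a beta-galactosidase, was at 6.58 FPKM in Yki+Tai-IR, 1.23 in Yki+Tai, 0.312 in Yki and 0.864 in GFP. CG7997, an alpha-galactosidase, was at 3.30 FPKM in Yki+Tai-IR, against 1.03 in Yki+Tai, 0.897 in Yki and 0.886 in GFP.

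Membrane transport gave the member with the most fragments. The amino acid transporter gene path (pathetic), which supports growth of large cells, was at 210 FPKM in Yki+Tai-IR, 45.3 in Yki+Tai, 93.2 in Yki and 76.7 in GFP. Ratios of Yki+Tai-IR were 4.63 (4.36 to 4.91) to Yki+Tai, 2.25 (2.14 to 2.37) to Yki and 2.73 (2.58 to 2.90) to GFP, on about 4469 fragments. The phosphate transporter gene CG42575, now NaPi-III, had the same order, at 64.7 FPKM in Yki+Tai-IR, 15.4 in Yki+Tai, 28.3 in Yki and 20 in GFP. In both, Yki+Tai was lowest and Yki second. The counting error on these abundant genes is small beside their differences, but variation between pools is not known. CG9336, now bero, a small surface protein of the Ly6 family, was at 71.6 FPKM in Yki+Tai-IR, 20.7 in Yki+Tai, 30.7 in Yki and 32.4 in GFP. The tetraspanin gene Tsp42El was at 14.4 FPKM in Yki+Tai-IR, 1.68 in Yki+Tai, 2.08 in Yki and 5.07 in GFP, and none of the 16 other genes of its cluster passed the gap of 1.

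Contractile genes entered at low levels. Mlc1, a myosin light chain gene, was at 5.99 FPKM in Yki+Tai-IR, 0.431 in Yki+Tai, 0.452 in Yki and 1.34 in GFP. The tropomyosin gene Tm2 was at 4.03 FPKM in Yki+Tai-IR, 0.977 in Yki+Tai, 0.479 in Yki and 1.42 in GFP. Both had GFP as the next library. In the muscle list, of 20 genes averaging 1 FPKM or more, 10 were higher by 1 or more in Yki+Tai-IR than in Yki+Tai, 9 than in Yki and 2 than in GFP, the 2 being Mlc1 and Tm2. Over all genes that could pass, the shares were 4.29% against Yki+Tai, 3.01% against Yki and 3.05% against GFP. Act57B, a muscle actin, was at 19.9 FPKM in Yki+Tai-IR, 4.31 in Yki+Tai, 4.53 in Yki and 15.2 in GFP. Summed over 32 genes the list was at 919 FPKM in Yki+Tai-IR, 1041.1 in Yki+Tai, 1087.8 in Yki and 1232.3 in GFP, and Argk, arginine kinase, was at 245 FPKM in Yki+Tai-IR, 402 in Yki+Tai, 362 in Yki and 576 in GFP. CAP, an adaptor of integrin and muscle attachment sites, was at 6.24 FPKM in Yki+Tai-IR, 2.2 in Yki+Tai, 2.35 in Yki and 2.2 in GFP, with no higher value in GFP.

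Regulatory and remaining named members were few. The long noncoding RNA bxd, transcribed upstream of Ubx, was at 3.68 FPKM in Yki+Tai-IR, 1.01 in Yki+Tai, 0 in Yki and 0.851 in GFP. CG11093, now fuss, a Smad corepressor of the Ski family, lies on chromosome 4 and was at 6.28 FPKM in Yki+Tai-IR, 1.62 in Yki+Tai, 2.53 in Yki and 1.88 in GFP. Mocs1, for molybdenum cofactor synthesis, was at 16.3 FPKM in Yki+Tai-IR, 6.87 in Yki+Tai, 6.30 in Yki and 5.89 in GFP. Each was expressed in at least 2 of the other libraries. PebIII, an ejaculatory bulb protein of a chemosensory family, was at 3.73 FPKM in Yki+Tai-IR and 0.828 to 1.08 in the other 3. CG30104, now NT5E-2, a nucleotidase, was the member nearest the threshold, at 3.26 FPKM in Yki+Tai-IR, 0.0904 in Yki+Tai, 0.887 in Yki and 1.12 in GFP.

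Members without a name beyond a CG number and not yet given above ranged from 3.64 to 32.8 FPKM in Yki+Tai-IR. The highest was CG14696, at 32.8 FPKM in Yki+Tai-IR, 4.67 in Yki+Tai, 7.86 in Yki and 13.1 in GFP, and the lowest CG12911, at 3.64 FPKM in Yki+Tai-IR, 1.08 in Yki+Tai, 0.301 in Yki and 1.14 in GFP. Between them, CG33099 stood at 12.6 FPKM and CG15879, CG34232, CG40472, CG42716, CG13403, CG42761, CG34165 and CG7016 at 4.24 to 6.50 FPKM in Yki+Tai-IR. Elsewhere these 8 genes were at 2.10 FPKM or less in every library. CG42761 had no match in the annotation, so neither its position nor its fragments are given.

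For 3 members the summed value with overlapping genes on the same strand was not highest in Yki+Tai-IR. CG42304 was at 10.5 FPKM in Yki+Tai-IR, 0.0735 in Yki+Tai, 0.00366 in Yki and 0.00174 in GFP. CG42303, which shares its locus and strand, was at 0.0809 FPKM in Yki+Tai-IR, 14.6 in Yki+Tai, 13 in Yki and 11.3 in GFP. Summed, the pair was at 10.6 FPKM in Yki+Tai-IR, 14.6 in Yki+Tai, 13 in Yki and 11.3 in GFP, so signal at the locus did not exceed the others in Yki+Tai-IR. CG33692 was at 5.62 FPKM in Yki+Tai-IR, 0 in Yki+Tai, 0.404 in Yki and 0 in GFP. The annotation has both it and CG33691 under CG43736, and their sum was 30.9 FPKM in Yki+Tai-IR, 35.9 in Yki+Tai, 28.6 in Yki and 41.9 in GFP. Pif1B was at 3.95 FPKM in Yki+Tai-IR, 0 in Yki+Tai, 0.639 in Yki and 0.498 in GFP, and with the overlapping Pif1A, CG33189 and CG33191 summed to 22.1 FPKM in Yki+Tai-IR, 14.7 in Yki+Tai, 16.5 in Yki and 35.1 in GFP, so this sum was lower only than GFP. With such sums 50 of the 53 members keep their gap of 1. Opposite-strand overlaps also occur, as for Chit with CG30463, at 20.7 FPKM in Yki+Tai-IR, 12.6 in Yki+Tai, 19.8 in Yki and 24.8 in GFP, and for y with CG32816, at 2.08 FPKM in Yki+Tai-IR, 0.55 in Yki+Tai, 0.0654 in Yki and 2.01 in GFP.

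The thresholds cut through neighbouring values. Just inside the gap of 1 lay CG30104 at 1.01, CG11093 at 1.04 and Tm2 at 1.06. Just outside were yellow-c at 0.96, CG1441 at 0.95 and CG7054 at 0.94. On the other limit, Yki minus GFP was 0.49 for CG33692, 0.48 for CG42575 and 0.37 for CG33099 inside it, and 0.54 for CG7296, 0.55 for CG15556 and 0.57 for CG10527 outside. By level, CG10527, at 126 FPKM in Yki+Tai-IR, 40.9 in Yki+Tai, 56.1 in Yki and 37.5 in GFP, is the most abundant of these 3. Among 173 genes of the name classes left out, 9 met the rest of the rule. They were Hsp22, Hsp67Bc, Hsp70Aa, GstE7, Cpr11B, 3 small nucleolar RNAs and 1 small nuclear RNA. Hsp67Bc, a small heat shock gene, was at 27.8 FPKM in Yki+Tai-IR, 7.53 in Yki+Tai, 1.23 in Yki and 3.08 in GFP.

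Of 24 fixed lists 6 held members. They held 8 of the 53 members, or 15.1%, against 315 of all 7747 genes that could pass, or 4.07%, and the other 45 members were in none. The lists were chosen with earlier results of these data known, so these shares are a description only. Genes whose names start with Hsp or Gst could not be members, which limits the chaperone and glutathione S-transferase lists. Of the genes so named that averaged 1 FPKM or more, 3 of 14 Hsp and 1 of 11 Gst genes met the rest of the rule. Over all genes that could pass, 4.29% were higher and 3.55% lower by 1 or more in Yki+Tai-IR than in Yki+Tai. Against Yki these shares were 3.01% and 0.916%, and against GFP 3.05% and 1.55%. None of 36 ecdysone-response genes above the filter was a member. With 53 members among 7747 genes, a list of 36 or 18 genes need hold none. Against Yki, 4 of them were higher by 1 or more in Yki+Tai-IR and 0 lower, and the median difference was 0.01. Against Yki+Tai 3 were higher and 5 lower, with a median of 0.08, and against GFP 3 were higher and 6 lower, with a median of -0.03. ImpL2, a secreted inhibitor of insulin signalling, was at 75.2 FPKM in Yki+Tai-IR, 28.8 in Yki+Tai, 35.9 in Yki and 42.8 in GFP, and Edg91, a late cuticle gene, at 9.65 FPKM in Yki+Tai-IR, 4.61 in Yki+Tai, 1.25 in Yki and 9.76 in GFP. None of 18 Yki targets was a member or was past 2-fold in either direction against Yki, with a median of -0.15. Against Yki+Tai 0 of these targets were higher and 3 lower, and against GFP 1 and 0. Among 16 P450 genes averaging 1 FPKM or more, 3 were higher and 4 lower in Yki+Tai-IR than in Yki+Tai, 4 and 0 than in Yki, and 4 and 1 than in GFP. Of 27 JNK and wound genes, 0 were higher and 5 lower than in Yki+Tai, 1 and 1 than in Yki, and 3 and 0 than in GFP. Of 27 DNA damage genes none was past that limit in these 3 comparisons. Against Yki, 10 of 23 chaperone genes were higher in Yki+Tai-IR and 1 lower, with a median of 0.66, while 4 were higher and 0 lower than in Yki+Tai and 11 and 1 than in GFP. Against Yki 6 of 23 glutathione S-transferase genes were higher and 0 lower, with a median of 0.21, while 7 were higher and 1 lower than in Yki+Tai and 3 and 0 than in GFP. Of 5 UDP-glycosyltransferases, 2 were higher and 0 lower than in Yki+Tai, 1 and 0 than in Yki, and 2 and 0 than in GFP. Of 7 stress peptides, these counts were 0 and 1 against Yki+Tai, 2 and 0 against Yki, and 2 and 0 against GFP. For 19 proteases and inhibitors they were 2 and 2 against Yki+Tai, 3 and 0 against Yki, and 2 and 3 against GFP. For 16 chitin-binding genes they were 3 and 3 against Yki+Tai, 1 and 0 against Yki, and 3 and 0 against GFP.

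Markers of other cell types moved unevenly beside the members. Over all genes that could pass, 4.29% were higher by 1 or more in Yki+Tai-IR than in Yki+Tai, 3.01% than in Yki and 3.05% than in GFP. The leg disc list held no member, but 9 of its 18 genes were higher by 1 or more in Yki+Tai-IR than in Yki, 10 than in Yki+Tai and 0 than in GFP. Their summed level was 378 FPKM in Yki+Tai-IR, 171 in Yki+Tai, 141 in Yki and 497 in GFP. Whether this RNA came from wing disc or leg disc tissue was not tested. Hemocyte markers summed to 173 FPKM in Yki+Tai-IR, 249 in Yki+Tai, 190 in Yki and 204 in GFP, tracheal markers to 1480.6 FPKM in Yki+Tai-IR, 1726.5 in Yki+Tai, 1413.5 in Yki and 1289.3 in GFP, and glial markers to 379 FPKM in Yki+Tai-IR, 333 in Yki+Tai, 351 in Yki and 332 in GFP. Fat body markers summed to 56.1 FPKM in Yki+Tai-IR, 31.4 in Yki+Tai, 32.1 in Yki and 49.5 in GFP, with Idgf3 as the only member among 20. Of 12 fat body markers above the filter, 3 were higher and 1 lower than in Yki+Tai, 3 and 0 than in Yki, and 1 and 1 than in GFP. Salivary gland markers summed to 38.0 FPKM in Yki+Tai-IR, 27 in Yki+Tai, 33.2 in Yki and 30.3 in GFP. Of the 5 above the filter, 3 were higher by 1 or more in Yki+Tai-IR than in Yki+Tai, with a median of 1.16, 0 than in Yki, with a median of 0.21, and 4 than in GFP, with a median of 1.34. Midgut enzymes were low in sum, at 8.82 FPKM in Yki+Tai-IR, 6.76 in Yki+Tai, 5.56 in Yki and 7.65 in GFP, as were testis genes at 12.4 FPKM in Yki+Tai-IR, 11.2 in Yki+Tai, 12.6 in Yki and 12.6 in GFP. Myoblast markers summed to 344 FPKM in Yki+Tai-IR, 352 in Yki+Tai, 334 in Yki and 548 in GFP. Of 15 above the filter, 4 were higher by 1 or more and 0 lower in Yki+Tai-IR than in Yki+Tai, 0 and 0 than in Yki, and 0 and 1 than in GFP. Of 14 hemocyte markers 0 were higher and 5 lower by 1 or more in Yki+Tai-IR than in Yki+Tai, 0 and 0 than in Yki, and 1 and 0 than in GFP. Of 10 glial markers 2 were higher than in Yki+Tai, 2 than in Yki and 1 than in GFP. The part of any of these tissues in the members was not tested.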

How the data were processed

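Per the labels' protocols, discs of each genotype were pooled, depleted of ribosomal RNA and made into 1 TruSeq version 2 library from 4 µg of total RNA, sequenced on an Illumina HiScan. The authors deposited an FPKM value per gene and library, 13990 genes in all. TopHat2 2.0.12 and Cuffdiff 2.2.1 are named in the submitters' processing notes, with CASAVA 1.4 and build dm6. Which annotation and options they ran is not given in the sources used. How Cuffdiff divides fragments among overlapping genes affects their FPKM.

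Members and lists were chosen with earlier results of these data known. The 8 families drawn beside the members were also chosen afterwards. Named genes are the 30 members with the largest gaps, members of lists or of runs within 20 kb, 3 genes on each side of each threshold, and the construct and compartment genes. Other genes named beside them were chosen after their values were seen.

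Depth was estimated from the steps between low FPKM values of genes with 1 transcript. The depth and the length taken off the transcript, 210 to 214 nt, were those that brought the largest share near whole fragments. That share was 72.9% to 75.2% within 0.08. Chance gives 16.0% at a depth fixed beforehand, which does not allow for the search. For genes with several transcripts the median length was used, so fragments are approximate. Symbols were matched to Ensembl release 115 (dm6 coordinates), through RefSeq synonyms where older: 13763 of 13990 matched. Steps were tested on simulated data. Promoter motifs and sequences were not analysed here. Tables were handled with pandas 2.3.3 and numpy 2.4.6, intervals computed with scipy 1.17.1 and plots drawn with matplotlib 3.10.9, under Python 3.11.15.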

Additional observations from a re-analysis of the deposited data

How the results depend on the processing

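The count of 53 members depended on pseudocount and filter. It was 26 with 5 added in place of 1, of which 22 are among the 53, 21 at a mean of 5 FPKM or more, 86 with no filter on the mean, and 35 without genes listed at 0 in any library. A gap of 1.5 left 29 and a gap of 2 left 18. Other alternatives gave 42 to 74, among them 62 with 0.1 added (48 shared), 53 after rescaling by the median ratio, 49 after rescaling to the same FPKM sum, 50 without transcripts under 500 nt, 43 without genes under 50 estimated fragments, and 50 when same-strand overlapping genes were summed, which was chosen after seeing the data. Genes higher by 1 or more in Yki+Tai-IR numbered 332 against Yki+Tai, 233 against Yki and 236 against GFP, but 140, 81 and 111 with 5 added and 191, 92 and 127 at a mean of 5 FPKM or more. Fewer genes are tested at the higher mean, and a larger pseudocount shrinks the differences of low genes. With 5 added, 31 of the 53 members had a gap under 1, and after rescaling to the same FPKM sum 2 did. Muscle genes higher than in Yki numbered 9, but 3 with 5 added and 2 at a mean of 5 FPKM or more. The planned search of promoters for motifs was not run. No paired analysis was possible because each genotype has 1 library. Depth limits members with few fragments.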
